A study of Mus musculus with 4 samples.

Results

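The cells described here carried too little of either hashtag to be assigned a genotype, and carried more of the knockout tag than of the wild-type tag. Bone marrow cells sorted as Lineage-, Sca-1+ and cKit+ (LSK) had been stained with an antibody-linked barcode, or hashtag, and cells of both genotypes were then run together. Per the study's methods, TotalSeq-B0096 against CD45 marked wild-type cells and TotalSeq-B0157 against CD45.2 marked knockout cells, an assignment that the labels do not give. In each library the hashtag counts were classified with HTODemux at a quantile of 0.99, and cells above neither cutoff were called Negative. Negative cells in which B0157 was above 0 and at least 1.5 times B0096 were taken as weakly tagged knockout-like cells. There were 7780 of them among 36684 cells (21.2%), 5164 of 23931 at homeostasis and 2616 of 12753 after 5-fluorouracil (5-FU). They were compared with wild-type singlets, the cells assigned B0096 alone, as a second set of knockout cells beside the knockout singlets that the assignment keeps.

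Wild-type cells came from Sin3B F/F mice and knockout cells from Sin3B F/F; Vav1-iCre+ mice, both on the C57BL/6 background, so both carried the floxed allele. Vav1-iCre is active in blood cells from the embryo on. Each genotype was a pool of 2 mice per condition, untreated (male, per the methods) or 9 days after 100 mg/kg 5-FU given into the peritoneum. Each condition was a single library, so that condition and library cannot be told apart, and within a library each group of cells was 1 pool. Levels are CPM, the usual depth-scaled unit, here for unique molecular identifiers (UMIs) of the gene relative to all gene UMIs in the pool, and 95% intervals within a library cover counting error only.

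SIN3B is a scaffold of the SIN3 complex, which brings histone deacetylases to chromatin and represses transcription. LSK cells hold the long-term hematopoietic stem cells (LT-HSCs), which rarely divide and can rebuild the blood, and the multipotent progenitors that descend from them. Hashtag antibodies against CD45 read out a surface protein of all white blood cells that the gene Ptprc encodes.

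The cutoffs were 185 UMIs of B0096 and 186 of B0157 at homeostasis, and 113 and 183 after 5-FU. At homeostasis the weakly tagged knockout-like cells had medians of 54 B0096 and 143 B0157 UMIs, against 93 and 235 in knockout singlets and 385 and 94 in wild-type singlets. After 5-FU their medians were 23 and 109, against 50 and 269 in knockout singlets and 481.5 and 69 in wild-type singlets. The lower total and the ratio follow in large part from the rule that chose the cells. Wild-type-like Negative cells, with B0096 at least 1.5 times B0157, numbered 473 at homeostasis and 610 after 5-FU, and 646 and 64 Negative cells lay between, among them 11 after 5-FU with no tag at all. Counted per side, the cutoff left unassigned 52.7% of the knockout side at homeostasis (95% binomial interval 51.7 to 53.7) and 3.92% of the wild-type side (3.59 to 4.29). The same shares in the 5-FU library were 41.2% (40.0 to 42.5) and 10.3% (9.55 to 11.1). HTODemux names a singlet by its relatively stronger tag, and 119 of 4628 knockout singlets at homeostasis and 11 of 3727 after 5-FU were above the B0096 cutoff and not the B0157 cutoff.

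**Figure D1:**
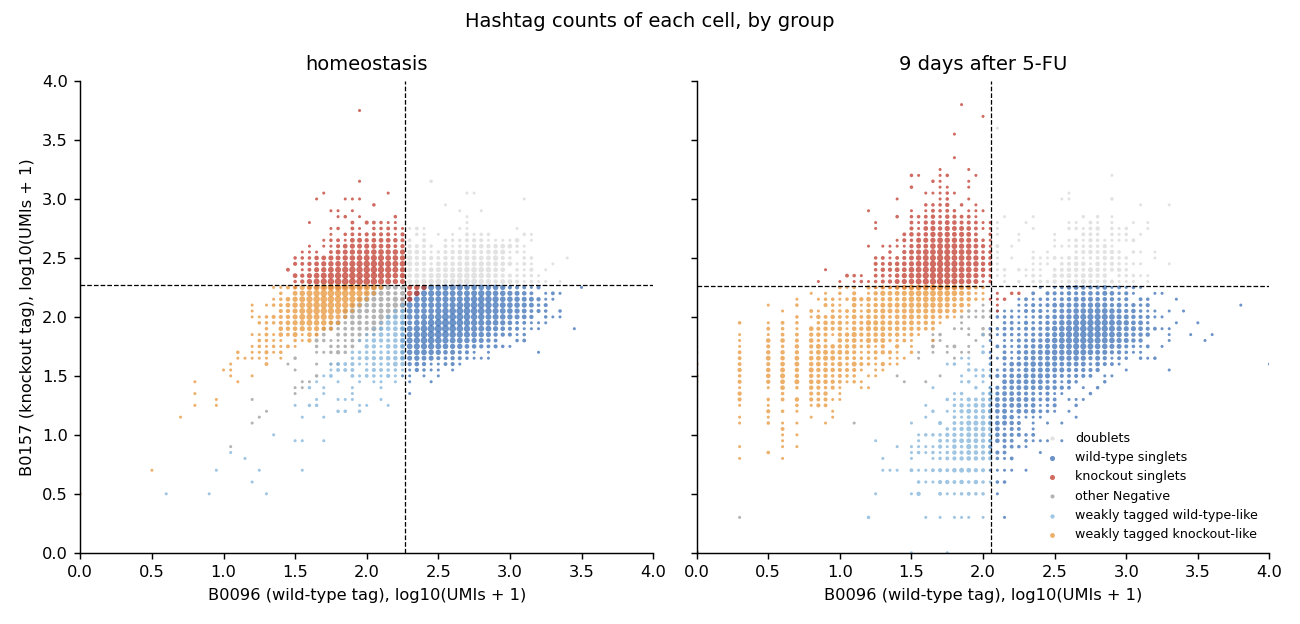
Counts of both hashtags per cell on log10 axes, in bins whose dot grows with the number of cells, coloured by group, with the HTODemux cutoffs dashed. The weakly tagged knockout-like cells (5164 and 2616) continue the cloud of knockout singlets below the B0157 cutoff of 186 or 183 UMIs.

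After removal of the extremes of depth, genes and mitochondrial share and of cells with lineage transcripts, 4758 weakly tagged knockout-like cells remained at homeostasis and 2445 after 5-FU. The singlets compared with them were 10152 wild-type and 4099 knockout cells, and in the 5-FU library 4830 and 3250. Depth was near that of singlets at homeostasis, with a median of 6038 UMIs against 6929 (wild type) and 6588 (knockout). After 5-FU it was lower, at 5577 against 9290.5 and 10853, and 27.1% of the weakly tagged cells lay under the minimum depth required at homeostasis, against 6.11% and 3.63%. Their median mitochondrial share after 5-FU was 4.28%, against 3.24% and 3.38%. The wild-type-like Negative cells after 5-FU were shallower still, with a median of 1772 UMIs and 84.5% of cells under that minimum. The 2 libraries had 76 barcodes in common.

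Sin3b (ENSMUSG00000031622), the deleted gene, was near the level of knockout singlets in weakly tagged knockout-like cells, and slightly above it after 5-FU. At homeostasis it was at 23.7 CPM in them (22.05 to 25.5), at 23.4 CPM in knockout singlets and at 81.8 CPM in wild-type singlets. In the 5-FU library the levels were 17.8 CPM (15.7 to 19.998), 15.2 CPM and 112.3 CPM. Wild-type-like Negative cells, which are also weakly tagged, had 70.3 CPM at homeostasis and 69.7 CPM after 5-FU (55.5 to 86.4), in the latter well below the wild-type singlets. The log2 ratio of weakly tagged knockout-like cells over wild-type singlets was -1.79 at homeostasis and -2.66 after 5-FU. In edgeR's quasi-likelihood test over 4 pools with library as a block, the log2 fold change was -2.20 (adjusted p = 0.00392). Against knockout singlets the same test gave 0.10 (edgeR adjusted p = 0.78). The sources used here do not give which exons are deleted, so how far the remaining 3′ reads bear on the deletion is not known.

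Both Sin3b and a further gene could be read as a position between the genotypes. On the scale from knockout singlets (0%) to wild-type singlets (100%), Sin3b put the weakly tagged knockout-like cells at 0.48% in the homeostasis library (-2.36 to 3.48) and 2.69% in the 5-FU library (0.59 to 4.99). Slc16a11, a monocarboxylate transporter gene that is nearly absent from knockout singlets, put them at 0.49% (-1.22 to 2.48) and -0.40% (-2.77 to 2.94). Cluster by cluster, Sin3b was lower than in wild-type singlets in 10 of 10 clusters with at least 50 cells of each group in either library. Over those clusters it ranged from 19.4 to 43.6 CPM in the homeostasis library, against 74.97 to 90.5 CPM in wild-type singlets, and from 8.20 to 28.8 CPM against 63.7 to 136.7 CPM in the 5-FU library. The ranges did not overlap in either library.

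Among all Negative cells at homeostasis, Sin3b followed the tag ratio that defines the cells. Sin3b was at 78.4 CPM where B0157 was under 0.5 times B0096, 54.8 CPM from 0.5 to 0.67 and 56.6 CPM from there to 1. It was at 34.9 CPM from 1 to 1.5 and 27.5 CPM from 1.5 to 2, and between 22.04 and 30.5 CPM above that. Slc16a11 was at 32.8 CPM below 0.5 and nearly level from there to the threshold of 1.5, at 15.5, 16.2 and 14.3 CPM. Just inside the threshold it was at 3.61 CPM. After 5-FU the 3 bins between ratios of 0.5 and 1.5 held only 8, 20 and 12 cells, with 2, 1 and 0 Sin3b UMIs, and no gradient could be read there: Sin3b was at 69.8 CPM below 0.5, 33.1 CPM (18.9 to 53.7) from 1.5 to 2 and 16.6 to 18.98 CPM above 2. With each cell thinned to that minimum depth, a Sin3b UMI was found in 6.94% of the weakly tagged knockout-like cells at homeostasis, 7.03% of knockout singlets and 21.7% of wild-type singlets. After 5-FU the shares were 5.44%, 4.57% and 27.7%, with 663, 118 and 295 shallower cells left out. Without thinning the homeostasis shares were 14.1%, 15.9% and 46.0%, and those after 5-FU 10.3%, 17.4% and 59.9%. Read against knockout singlets as the background, the weakly tagged cells were near them at equal depth.

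**Figure D2:**
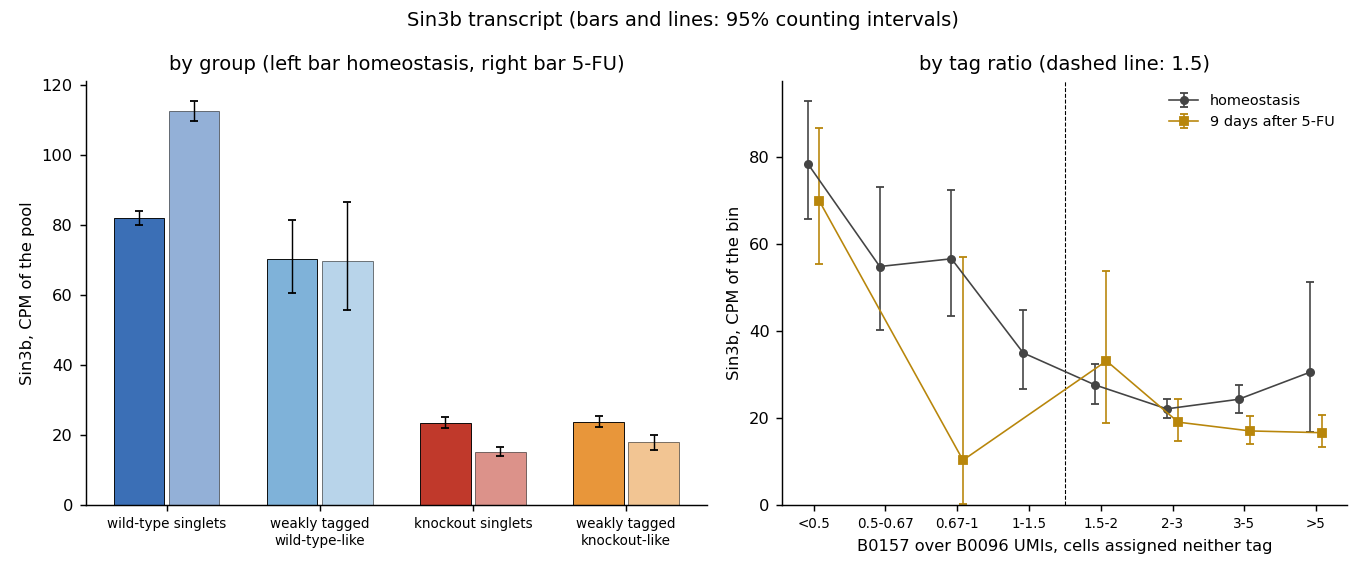
Sin3b in CPM by group (left, bars from 0) and by the ratio of tags in Negative cells (right, bins with at least 20 cells), with 95% counting intervals. Weakly tagged knockout-like cells, at 23.7 and 17.8 CPM, stand beside knockout singlets at 23.4 and 15.2 CPM, while the wild-type-like Negative cells are at 70.3 and 69.7 CPM and the wild-type singlets at 81.8 and 112.3 CPM.

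To ask which genotype differences of knockout singlets recur, genes were first taken by size, without a test. A gene was counted when knockout over wild-type singlets had a log2 ratio of at least 1 in size and of 1 sign in both libraries. There were 72 such genes higher and 62 lower in knockout singlets. In weakly tagged knockout-like cells over wild-type singlets, 65 of the 72 were higher in both libraries, with medians of 1.01 at homeostasis and 0.87 after 5-FU, against 1.49 and 1.40 in knockout singlets. Of the 62, 54 were lower in both, with medians of -1.31 and -1.38, against -1.43 and -1.73. At this setting the medians of the lower genes were nearer to those of the singlets than the medians of the higher genes. The singlet medians come from the same values that chose the genes. With a tag ratio of at least 3 the contrast was gone. The weakly tagged medians were then 1.33 and 1.12 for the 72 higher genes and -1.27 and -1.43 for the 62 lower ones. With 5000 or more UMIs per cell in both libraries, 53 of 73 higher genes kept their direction, with a median of 0.39 after 5-FU. A log2 ratio of at least 1 in both libraries was reached by 24 of the 72 higher genes and by 34 of the 62 lower ones. Among all 12676 genes measured, 0.229% were that much higher and 0.505% that much lower.

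Both comparisons share the wild-type singlets, so the genes were also measured where no cell is shared. Of 179 genes higher by this size in knockout singlets at homeostasis, 117 were higher in weakly tagged knockout-like cells over wild-type singlets after 5-FU, 28 of them by at least 1 (background 0.734% of genes). Of 132 lower genes, 102 were lower there, 53 by at least 1 (1.34%). Genes chosen after 5-FU and measured at homeostasis gave 129 of 146 higher, 41 by at least 1 (1.01%), and 149 of 183 lower, 54 by at least 1 (1.22%). Against wild-type-like Negative cells of the same library, 168 of 186 genes were higher at homeostasis, 69 by at least 1 (2.36%), and 101 of 105 lower, 56 by at least 1 (1.42%). After 5-FU, 41 of 53 were higher, 19 by at least 1 (2.64%), and 44 of 49 lower, 18 by at least 1 (3.96%). In each of these 8 counts most genes kept the direction of the knockout singlets. Over all measured genes, the median log2 ratios over wild-type singlets were 0.01 at homeostasis and 0.04 after 5-FU. Over wild-type-like Negative cells they were 0.03 and -0.14, and the latter favours the lower genes of that comparison.

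The most different genes of knockout singlets, the 10 highest and 10 lowest by their smaller ratio, all kept their direction in weakly tagged knockout-like cells in both libraries. The higher ones include the metallothionein genes Mt1 and Mt2. Sva, which encodes a seminal vesicle antigen, was at 1.15 CPM in wild-type singlets, 16.0 CPM in knockout singlets and 16.8 CPM in weakly tagged knockout-like cells at homeostasis. In the 5-FU library it was at 0.155, 3.05 and 4.01 CPM. The log2 ratios of the weakly tagged cells, 3.86 (3.55 to 4.197) and 4.62 (3.63 to 5.97), were as large as the 3.80 and 4.22 of knockout singlets. Meiob, which encodes a single-stranded DNA binding protein of meiosis, was at 0.343, 1.93 and 1.63 CPM at homeostasis. After 5-FU wild-type singlets had only 2 Meiob UMIs, and the log2 ratio of the weakly tagged cells was 4.91 (3.18 to 8.33). Adhfe1, a mitochondrial dehydrogenase gene, was at 0.991, 4.69 and 4.01 CPM at homeostasis and at 0.116, 2.12 and 1.87 CPM after 5-FU.

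Dnm3, which encodes a dynamin GTPase, rose less in weakly tagged knockout-like cells than in knockout singlets. It was at 2.79 CPM in wild-type singlets, 16.0 CPM in knockout singlets and 8.64 CPM in weakly tagged cells at homeostasis, and at 1.49, 9.34 and 5.95 CPM after 5-FU. Its edgeR log2 fold change was 1.74 against wild-type singlets (adjusted p = 0.00629) and -0.80 against knockout singlets (adjusted p = 9e-07). In the fit against knockout singlets, disagreement between the libraries over a gene did not enter its p. Pdgfc, a growth factor of the platelet-derived family, had log2 ratios of 1.51 and 1.22, against 2.32 and 1.89 in knockout singlets, and the interval after 5-FU reached below 0 (-0.05 to 2.40). Slc17a8 (a vesicular glutamate transporter), Tm4sf1 (a membrane protein) and Ndnf (a secreted neurotrophic factor) were between 0.73 and 1.43 in the weakly tagged cells and between 1.77 and 2.10 in knockout singlets. With the singlets weighted to the cluster makeup of the weakly tagged cells, Dnm3 was at 1.25 in weakly tagged cells and 1.91 in knockout singlets at homeostasis. After 5-FU it was at 2.30 and 2.61. So weighted, Pdgfc was at 1.03 and 1.62 at homeostasis and at 1.43 and 1.59 after 5-FU. Ndnf after 5-FU was at 2.25 in weakly tagged cells and 2.37 in knockout singlets, and Tm4sf1 at homeostasis at 0.13 and 1.07. After 5-FU the weighting lets 16 of 3250 knockout singlets stand for a shallow cluster with 23.0% of the weakly tagged cells. For Tm4sf1 the interval at homeostasis also reached below 0 (-0.04 to 1.45), and its edgeR adjusted p over both libraries was 0.201.

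Metallothioneins bind zinc and copper, and their genes are switched on by the metal-sensing factor MTF1. Mt1 was at 19.6 CPM in wild-type singlets, 86.8 CPM in knockout singlets and 77.1 CPM in weakly tagged knockout-like cells at homeostasis, and at 31.9, 146.6 and 97.1 CPM after 5-FU. Mt2 was at 2.08, 12.7 and 9.08 CPM at homeostasis and at 1.84, 26.0 and 13.0 CPM after 5-FU. Wild-type-like Negative cells had 44.1 and 38.6 CPM of Mt1, above the wild-type singlets and below the weakly tagged knockout-like cells. Of 5 measured genes of metallothioneins and zinc handling, 3 rose in weakly tagged knockout-like cells against wild-type singlets by the edgeR test: Mt2 (log2 fold change 2.41), Mt1 (1.77) and Mtf1 (0.54, adjusted p = 0.0341). The zinc importer gene Slc39a10 fell by 0.52 on the log2 scale (edgeR adjusted p = 0.0334), and over all 12676 genes 0.978% were called higher and 1.16% lower. The zinc exporter Slc30a1 was at 3.23 and 4.79 CPM at homeostasis and at 5.28 and 7.04 CPM after 5-FU. Because the metallothioneins carried this group, the 250 bases before the RefSeq start of each gene are shown (GRCm38.p6, plus strand, chr8:94178839-94179088 for Mt1 and chr8:94172368-94172617 for Mt2). The GENCODE annotation places the starts elsewhere, at 94179082 for Mt1, inside its window, and at 94172664 for Mt2, beyond its window.
Mt1: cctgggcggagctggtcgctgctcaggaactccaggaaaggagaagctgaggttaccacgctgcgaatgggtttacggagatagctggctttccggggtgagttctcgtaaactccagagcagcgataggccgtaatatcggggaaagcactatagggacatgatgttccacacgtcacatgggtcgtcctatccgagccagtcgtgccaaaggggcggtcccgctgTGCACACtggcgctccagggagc
Mt2: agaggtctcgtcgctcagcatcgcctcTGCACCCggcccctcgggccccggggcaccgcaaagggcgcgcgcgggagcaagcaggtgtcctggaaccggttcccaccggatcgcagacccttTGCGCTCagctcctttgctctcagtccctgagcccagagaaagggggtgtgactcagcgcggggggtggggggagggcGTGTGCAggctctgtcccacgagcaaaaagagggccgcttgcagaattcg
Capitals mark the letters TGCGCNC or TGCACNC on either strand, the core of the metal response element that MTF1 binds. In these windows Mt1 holds 1 match and Mt2 holds 3, while 21.4% of 32851 promoters of this length hold at least 1 and 1.26% at least 3. Bases beyond the windows were not searched, so the counts do not cover the whole promoter of either gene.

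The 10 lowest genes have varied roles. Gria2, an AMPA glutamate receptor subunit, was at 4.78 CPM in wild-type singlets at homeostasis and at 0.094 CPM (3 UMIs) in weakly tagged knockout-like cells, a log2 ratio of -5.45 (-7.95 to -4.11). After 5-FU it was at 1.30 CPM in wild-type singlets and had no UMI in the weakly tagged cells or the knockout singlets, which makes it at least 6.68-fold lower at the 3 UMIs a count of 0 allows in the weakly tagged pool. Slc16a11 was at 35.4 CPM in wild-type singlets, 2.72 CPM in knockout singlets and 2.88 CPM in weakly tagged cells at homeostasis, and at 21.9, 1.31 and 1.23 CPM after 5-FU. Clec10a, a lectin of macrophages whose gene neighbours Slc16a11 on chromosome 11, was at 11.1, 1.71 and 1.41 CPM, and at 22.5, 6.504 and 4.14 CPM. Both fell by the edgeR test, with log2 fold changes of -3.78 for Slc16a11 and -2.71 for Clec10a (adjusted p = 0.000351 and 0.00165). With the singlets weighted to cluster makeup, the Clec10a log2 ratio after 5-FU was -1.91 in weakly tagged cells and -0.81 in knockout singlets. The weighted knockout pool after 5-FU rests in part on 16 cells of a shallow cluster.

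Fcer1a, the alpha chain of the IgE receptor of mast cells and basophils, was at 0.918 CPM in wild-type singlets and had 1 UMI in the weakly tagged cells at homeostasis, a log2 ratio of -4.30 (-10.2 to -2.35). After treatment it was at 6.82 CPM against 0.582 CPM, and 0.643 CPM in knockout singlets. Uchl1, a deubiquitinase, was at 5.51 against 0.814 CPM at homeostasis and at 4.16 against 0.582 CPM after 5-FU. The ephrin receptor gene Epha7 was at 25.7 CPM against 7.39 CPM at homeostasis and at 1.91 against 0.905 CPM after 5-FU. Snhg18, Scube3, Epha4 and Apob were lower too, with log2 ratios from -3.11 to -2.02 at homeostasis and, after 5-FU, from -2.73 to -1.499. Apob, an apolipoprotein, and Epha7 differed least from wild-type singlets after 5-FU, at -1.499 (-2.42 to -0.77) and -1.04 (-2.004 to -0.27), against -3.14 and -2.13 in knockout singlets. With the singlets weighted to the cluster makeup of the weakly tagged cells, Apob after 5-FU was at -1.88 in weakly tagged cells and -1.21 in knockout singlets. The order thus turned, in a weighted knockout pool that rests in part on 16 cells of a shallow cluster.

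**Figure D3:**
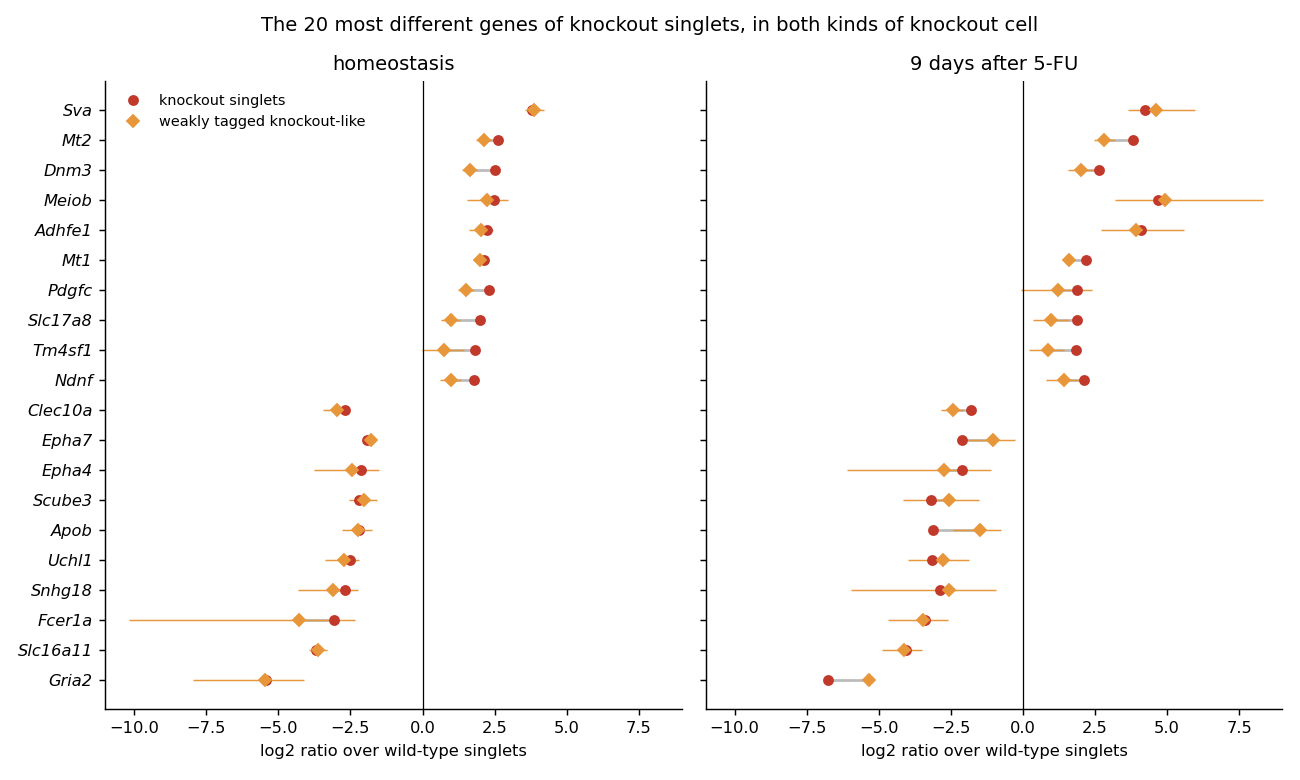
Log2 ratios over wild-type singlets of the 20 genes that differed most in knockout singlets, per library, with 95% counting intervals for the weakly tagged cells (Gria2 after 5-FU has 0 UMIs in both knockout groups, and its points there depend on the 0.5 counts added). All 20 diamonds lie on the side of 0 of their circle, and those of Dnm3, Slc17a8, Tm4sf1 and Ndnf lie closer to 0.

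The Hoxb genes, a row of neighbouring homeobox genes on chromosome 11 that give cells positional and stem cell identity, were looked at as a group after their values were seen. All 6 with 50 or more UMIs over both groups in each library, Hoxb2 to Hoxb6 and Hoxb8, were higher in weakly tagged knockout-like cells than in wild-type singlets in both libraries. Hoxb2 was at 4.45 CPM in wild-type singlets, 14.8 CPM in knockout singlets and 13.8 CPM in weakly tagged cells at homeostasis, and at 11.5, 28.4 and 22.6 CPM after 5-FU. Hoxb4 was at 20.97, 30.8 and 32.3 CPM, and at 47.3, 58.6 and 61.4 CPM. The log2 ratios of the 6 genes ran from 0.62 to 2.17 at homeostasis and, in the 5-FU library, from 0.38 to 1.05. By the edgeR test at the main setting Hoxb2, Hoxb3, Hoxb4 and Hoxb6 rose in the weakly tagged cells (log2 fold changes 1.28, 0.73, 0.48 and 1.20, adjusted p = 0.0203, 0.0372, 0.048 and 0.0253), where 0.978% of all genes were called higher. Whether these calls hold under other settings was not examined. Wild-type-like Negative cells had 15.6 and 30.2 CPM of Hoxb3, in the 5-FU library more than the 25.7 CPM of the weakly tagged knockout-like cells, and less than those cells of the other 5 genes in both libraries. Hoxb5 had 0.85 (edgeR adjusted p = 0.0692) and Hoxb8 1.29 (edgeR adjusted p = 0.0974).

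Of the 134 genes taken by size, 15 did not keep their direction in weakly tagged knockout-like cells, 14 of them after 5-FU alone and Arhgef26 at homeostasis alone. Several of them are known from differentiated or primed cells. Pf4, a platelet chemokine gene, was at 35.6 CPM in wild-type singlets, 119.6 CPM in knockout singlets and 71.0 CPM in weakly tagged cells at homeostasis, but at 188.4, 449.1 and 167.7 CPM after 5-FU. Ctsg, cathepsin G of neutrophil granules, was at 60.3, 28.4 and 37.2 CPM at homeostasis, and at 85.5, 36.2 and 106.9 CPM after 5-FU. Dntt, the enzyme that adds bases at antigen receptor junctions, was at 142.8, 55.6 and 80.2 CPM, and at 42.6, 19.7 and 44.97 CPM. Cd38, an ectoenzyme, had log2 ratios of 0.76 and -0.06 in the weakly tagged cells against 1.03 and 1.11 in knockout singlets. The others were Car11, Cdc42ep5, Gm13889, F10, St8sia6, Gm1604a, Gm12503, Arpp21, Cmah and Afap1, with ratios after 5-FU between -0.29 and 0.45.

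The weakly tagged cells were spread differently over the clusters of the LSK compartment, so the singlets were also weighted to their cluster makeup. After 5-FU, 16 of 3250 knockout singlets stood for a shallow cluster that held 23.0% of the weakly tagged cells. Each of their UMIs thus counted many times in the weighted knockout pool. With that weighting the genes higher by size in knockout singlets went from 72 to 27, of which 21 were among the 72. Of the 51 that dropped out, 46 had a log2 ratio under 1 and 5, Meiob and Pdgfc among them, fell under 50 weighted UMIs. All 27 were higher in weakly tagged knockout-like cells in both libraries, with medians of 1.18 and 1.32. The lower genes numbered 62 as before, 42 of them the same, and 61 were lower in the weakly tagged cells. Of the lower genes that dropped out, 15 had a log2 ratio under 1 in size and 5, Snhg18 and Epha4 among them, fell under 50 weighted UMIs. The 27 included Mt1, Mt2, Dnm3, Adhfe1, Sva, Ndnf, Slc17a8, Tm4sf1, Hoxb2, Hoxb6, Hoxb8 and Hoxb9. Vwf, the von Willebrand factor of platelets and platelet-biased stem cells, went from log2 ratios of 1.06 and 0.85 in knockout singlets to 0.53 and 0.64, and stood at -0.04 and -0.29 in weakly tagged cells. Sin3b stood at -1.80 and -2.41 in weakly tagged cells with the weighting.

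In the edgeR test across all genes, 271 of 12676 genes differed between weakly tagged knockout-like cells and wild-type singlets at an adjusted p under 0.05, 124 higher and 147 lower. Knockout singlets differed from wild-type singlets in 281 of 13047 genes, 1.2% of them higher and 0.95% lower. The recurring genes, called in both in the same direction, numbered 119, 54 higher and 65 lower. Beside the genes named above, the higher ones included the stress-response cofactor Nupr1 (15.5 CPM in wild-type singlets and 33.5 CPM in weakly tagged cells at homeostasis, 20.97 and 51.8 CPM after 5-FU), the homeobox cofactor Pbx3 (76.7 and 158.7 CPM, then 27.8 and 49.9 CPM) and Crbn, a substrate receptor of a ubiquitin ligase (26.1 and 46.7 CPM, then 27.1 and 59.6 CPM). The lower ones included Cd48, whose protein marks progenitors in sorting, at 108.2 and 58.9 CPM at homeostasis and 111.3 and 81.9 CPM after 5-FU (log2 fold change -0.68, edgeR adjusted p = 0.0253). Pbx3 was at 159.5 and 50.3 CPM in knockout singlets, and differed between weakly and clearly tagged knockout cells by only -0.01 in either library. These further genes were chosen after their values were seen.

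Against the wild-type-like Negative cells, which share no cell with the singlets, 14 genes were higher (0.129% of 10887) and 9 lower (0.0827%), with 469 genes at an unadjusted p under 0.05. The higher genes were led by S100a8, Elane and S100a9 and the lower ones by Ebf1, Sin3b and Car1. Of the genes called, 7 higher and 4 lower were also called in knockout singlets in the same direction, Sva (log2 fold change 2.20, adjusted p = 0.00298), Mt1 (1.095, adjusted p = 0.0136), Hoxb2 (1.54, adjusted p = 0.00447), Sin3b (-1.71, adjusted p = 1.89e-08) and Clec10a (-1.89, adjusted p = 0.023) among them, by edgeR. Of the wild-type-like Negative cells, 36.03% lay in a neutrophil-primed-like cluster at homeostasis and 70.7% in a shallow cluster after 5-FU. With 5000 or more UMIs or the depth minimum of homeostasis in both libraries, 0 genes were called. In this fit the prior degrees of freedom were estimated as infinite, so a gene's own disagreement between the libraries did not enter its p. The fits against wild-type singlets rest on 1 residual degree of freedom and a finite prior, and the 271 and 119 genes depended on the settings. With the minimum depth of homeostasis required in both libraries they were 45 and 31, with k-means in HTODemux 61 and 42, without the library block 0 and 0, and without the quality filters 698 and 154. Genes and list members named as rising or falling by the test are those of the main setting. Which of them stayed called under the others was not examined.

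Of the lists of genes for pathways and cell types, most had few members called in weakly tagged knockout-like cells against wild-type singlets. The lists were counted at the main setting alone. In the SIN3 complex only Sin3b itself fell among 23 measured members, with Sin3a at 70.8 and 63.9 CPM and Hdac1 at 88.6 and 87.9 CPM at homeostasis. None of 18 interferon genes, 15 NF-kB genes, 18 lineage transcription factors, 6 heat shock genes and 9 p53 targets was called. Of 13 immediate early genes, which cells switch on within minutes of stimulation, 5 fell and none rose, where 1.16% of all genes were called lower. Egr1 was at 30.05 CPM in wild-type singlets, 13.5 CPM in knockout singlets and 13.1 CPM in weakly tagged cells at homeostasis, and at 331.7, 178.4 and 240.0 CPM after 5-FU (log2 fold change -0.82, edgeR adjusted p = 0.0394). Fos was at 37.4, 16.4 and 22.7 CPM, and at 305.1, 211.0 and 203.6 CPM (-0.67, edgeR adjusted p = 0.00629). The others that fell were Jun, Junb and Jund, and the median of the list was -0.35 against 0.0072 over all genes.

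Of 7 MHC class II genes, which present antigen and are known in a subset of stem cells, 3 fell (1.16% of all genes were called lower and 0.978% higher). Cd74, the invariant chain, was at 42.7 CPM in wild-type singlets, 40.2 CPM in knockout singlets and 24.4 CPM in weakly tagged cells at homeostasis, and at 38.5, 43.6 and 28.4 CPM after 5-FU. It fell against wild-type singlets by 0.65 and against knockout singlets by 0.69 on the log2 scale (edgeR adjusted p = 0.0302 and 2.22e-09). H2-Aa and H2-Ab1 fell against wild-type singlets too, and no member of the list was called in knockout singlets. None of 9 LT-HSC markers was called against wild-type singlets, with a median of 0.13. The study's gene clusters were drawn from its own LSK cells at homeostasis, the data used here, and so are no independent evidence of direction. Cluster II had 13 of 73 higher and none lower and Cluster IV 9 of 101 higher and none lower. The published LT-HSC signature that the study used had 7 of 116 higher and 4 lower.

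The cell cycle lists had lower summed levels in weakly tagged knockout-like cells than in wild-type singlets at homeostasis, with few members called over both libraries. The summed level of 18 G2 and M phase genes was 708 CPM in weakly tagged cells, 835 CPM in knockout singlets and 1086 CPM in wild-type singlets at homeostasis, with a median log2 ratio of -0.61 for the weakly tagged cells against 0.01 over all genes. In the 5-FU library the sums were 1042, 1194 and 1033 CPM, with a median of 0.01 against 0.04. The sums of 21 S phase genes were 1019, 1094 and 1259 CPM at homeostasis and 1501, 1766 and 1550 CPM after 5-FU, lower in the weakly tagged cells than in wild-type singlets in both. Top2a, the topoisomerase of dividing cells, was at 151.1 CPM in weakly tagged cells and 228.2 CPM in wild-type singlets at homeostasis, and at 216.1 and 206.3 CPM after 5-FU. Over both libraries the edgeR test called 1 of the 18 lower (Ube2c) and 2 of 21 S phase genes (Ung and Chaf1b), and none higher, where 1.16% of all genes were called lower.

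Weakly tagged knockout-like cells also differed from the knockout singlets themselves. The edgeR test called 208 genes higher (1.69% of 12295) and 255 lower (2.07%). With the knockout singlets weighted to the cluster makeup of the weakly tagged cells, it called only 28 higher and 33 lower of 12153. That weighted pool rests in part on the 16 knockout singlets of a shallow cluster after 5-FU. The genes and lists given below are from the unweighted fit and were not recounted with the weighting. The highest by adjusted p were the granule genes Elane, Camp, Mpo and Ctsg and the myeloid lectin Clec12a, and the lowest were the platelet genes Pf4, Vwf, Clu and Cavin2 and the adhesion gene Ncam2. Elane, neutrophil elastase, was at 15.7 CPM in knockout singlets and 24.5 CPM in weakly tagged cells at homeostasis and at 7.89 and 71.2 CPM after 5-FU. Mpo, myeloperoxidase, was at 72.8 and 90.3 CPM, and at 43.1 and 141.6 CPM. Vwf was at 15.7 and 9.33 CPM, and at 41.6 and 16.7 CPM. Clu, or clusterin, was at 5.67 and 2.44 CPM, and at 13.1 and 3.55 CPM.

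The ratios of Elane to knockout singlets were 0.64 and 3.17 on the log2 scale, those of Mpo 0.31 and 1.72, those of Pf4 -0.75 and -1.42 and those of Vwf -0.75 and -1.32. Camp differed after 5-FU only, at 15.2 against 0.524 CPM, and was at 1.41 and 1.49 CPM at homeostasis. In this fit the estimated prior degrees of freedom were infinite, so the disagreement of the libraries over a single gene did not enter its p, and DESeq2 called 14 genes in place of 463. Of all genes tested against knockout singlets, 2.07% were lower and 1.69% higher. The LT-HSC markers had 5 of 9 members lower and none higher than in knockout singlets, and the published LT-HSC signature used by the study had 41 of 115 lower and none higher. The neutrophil-primed markers had 3 of 7 higher and none lower, and the megakaryocyte-erythroid markers 1 of 7 higher (Car1) and 1 lower (Pf4). The lymphoid-primed markers Flt3, Dntt and Satb1 were called higher, by 0.60, 0.82 and 0.81.

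After 5-FU, markers of mature neutrophils were higher in the weakly tagged cells too. The summed level of the 6 listed was 181 CPM in weakly tagged knockout-like cells after 5-FU, 7.43 CPM in knockout singlets and 6.63 CPM in wild-type singlets, and all 6 were higher than in either singlet pool. At homeostasis it was 10.6, 54.1 and 11.5 CPM. S100a8, a calcium-binding protein of neutrophils, was at 81.3 CPM after 5-FU against 1.72 and 2.69 CPM. The level rested on few cells, since those with 2 or more UMIs of these markers were 26 of 2616. Those counts are from before the quality filters, while the levels are of cells kept by them. Before the filters, leaving out such cells took knockout singlets from 3727 to 3628 and wild-type singlets from 5302 to 5269. By number of cells, they were thus a larger share of knockout singlets than of weakly tagged cells. Without such cells in any group, the log2 ratio of weakly tagged cells over wild-type singlets after 5-FU went from 2.78 to 0.91 for Elane, from 4.65 to 0.54 for Camp and from 0.47 to 0.03 for Mpo. The Ctsg log2 ratio after 5-FU went from 0.32 to -0.0042. The genes called against wild-type singlets went from 271 to 165 in number and the recurring genes were again 119, and which genes they had in common was not counted. Against wild-type singlets, the direction also turned for Elane at homeostasis with a tag ratio of at least 3 (-1.29) and for Camp after 5-FU with hashtags normalized within cells (-0.08).

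The share of LT-HSC-like cells, from clusters built without the genes that differed between singlet genotypes, moved in opposite directions against wild-type singlets in the 2 libraries. At homeostasis it was 18.6% of weakly tagged knockout-like cells (95% binomial interval 17.5 to 19.8), 23.2% of knockout singlets (21.9 to 24.5) and 10.6% of wild-type singlets (9.98 to 11.2), in 1 cluster with 9 of 9 LT-HSC markers raised. After 5-FU it was 23.5% (21.8 to 25.2), 45.4% (43.7 to 47.1) and 36.5%, in 2 clusters with 7 of 9 markers raised each. The difference from wild-type singlets was 8.05 points (6.79 to 9.33) at homeostasis and -13.0 points (-15.2 to -10.8) after 5-FU. Over the other settings with wild-type singlets the difference ran from 6.73 to 29.3 points at homeostasis and from -20.6 to -5.01 points after 5-FU. Against the wild-type-like Negative cells after 5-FU, of which 5.65% were LT-HSC-like, it was 17.8 points. In weakly tagged cells and knockout singlets together the share was 20.8% at homeostasis and 35.98% after 5-FU. These cells together were thus above the wild-type singlets at homeostasis and near them after 5-FU. The 2 sides are not alike, since the wild-type-like Negative cells (31 of 549 LT-HSC-like after 5-FU) were not added to the wild-type singlets. At a cluster resolution of 0.5 the share in weakly tagged cells and knockout singlets together after 5-FU was 31.3%, below the 38.4% of wild-type singlets.

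The 2 LT-HSC-like clusters after 5-FU did not behave alike. The one led by Sult1a1 and Dnm3 held 20.3% of weakly tagged knockout-like cells, 30.9% of knockout singlets and 13.8% of wild-type singlets. The one led by Meg3 held 3.15%, 14.5% and 22.7%. A shallow unnamed cluster with a median of 1946 UMIs held 23.0% of the weakly tagged cells, 0.49% of knockout singlets and 5.22% of wild-type singlets, and 70.7% of wild-type-like Negative cells. With the minimum depth of homeostasis required in both libraries, the LT-HSC-like share after 5-FU was 28.3% in weakly tagged cells and 38.0% in wild-type singlets. At homeostasis a neutrophil-primed-like cluster held 2 of 4758 weakly tagged knockout-like cells (0.042%), 41 of 4099 knockout singlets, 5.56% of wild-type singlets and 36.03% of wild-type-like Negative cells. Even the knockout singlets of that cluster had more B0096 (median 216 UMIs) than B0157 (168), so that the low share of weakly tagged cells cannot be told apart from the tag ratio that chose them.

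**Figure D4:**
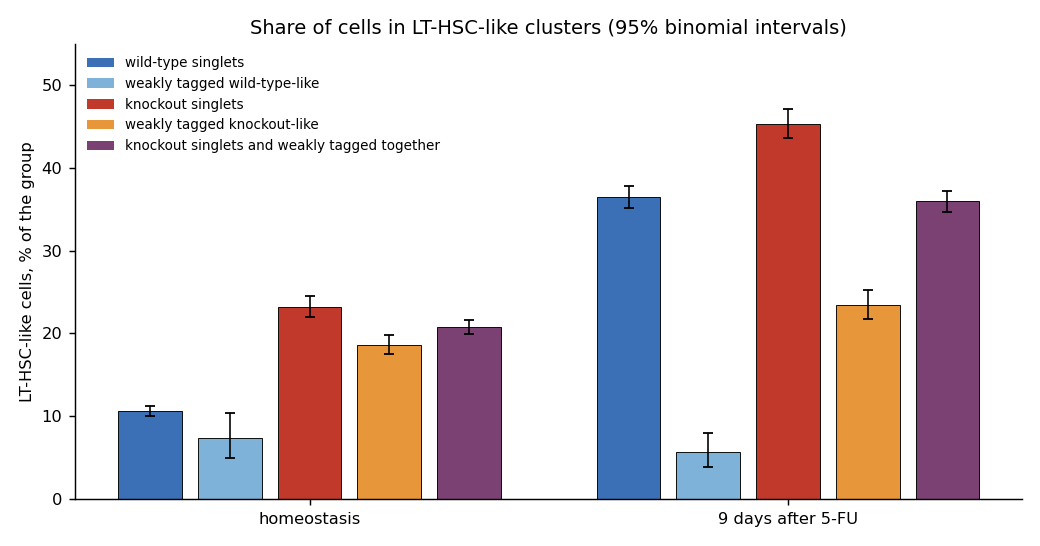
Percent of each group's cells in LT-HSC-like clusters, bars from 0 with 95% binomial intervals, per library. The weakly tagged knockout-like cells, at 18.6% and 23.5%, stand above the wild-type singlets at homeostasis (10.6%) and below them after 5-FU (36.5%).

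Within all cells with the knockout tag, weakly tagged and singlets together, levels were followed across the B0157 count. Sin3b stayed between 21.1 and 34.1 CPM in every bin at homeostasis, and after 5-FU it went from 23.7 CPM in the weakest bin to 13.2 CPM in the strongest, below the wild-type singlets throughout. Mpo after 5-FU was at 145.6 CPM below 50 UMIs of B0157, 95.2 CPM from 50 to 99, 198.0 CPM from 100 to 149, 113.1 CPM just below the cutoff, 66.1 CPM just above it and 26.1 to 39.7 CPM from 250 UMIs on. At homeostasis it went from 113.1 CPM at 50 to 99 UMIs to 43.9 CPM at 400 or more. Procr, the protein C receptor that marks LT-HSCs, was lower where the tag was weak, at 48.9 CPM from 100 to 149 UMIs and 71.1 CPM from 300 to 399 after 5-FU. Ptprc, the transcript of the tagged protein, went the other way after 5-FU, from 442.7 CPM below 50 UMIs to 204.8 CPM at 400 or more, while at homeostasis it stayed between 252.6 and 331.4 CPM. Median depth rose along the same bins, from 1846 to 15491 UMIs per cell after 5-FU. Cells with mature neutrophil transcripts were kept in these bins, and leaving them out had lowered the Mpo ratio over wild-type singlets after 5-FU. Whether depth, tag or cell type sets these levels was not tested.

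**Figure D5:**
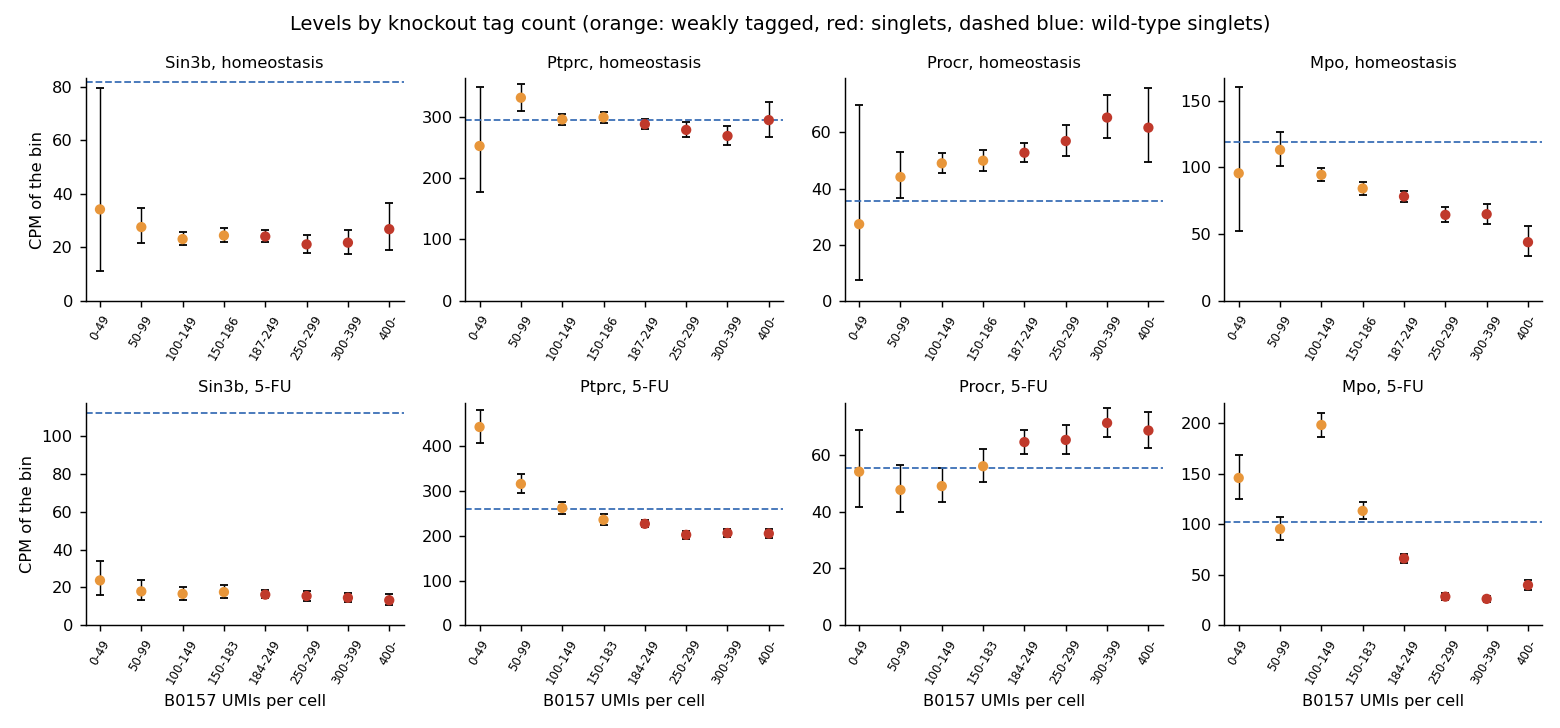
CPM of 4 genes in bins of B0157 UMIs per cell among weakly tagged knockout-like cells and knockout singlets together, with 95% counting intervals and the wild-type singlets dashed in blue. Bins up to the cutoff (orange) hold the weakly tagged cells and also 70 knockout singlets at homeostasis and 8 after 5-FU. Bins above it (red) hold knockout singlets. Sin3b lies below the dashed line in every bin, going from 23.7 to 13.2 CPM after 5-FU, while Mpo there is highest at 198.0 CPM in the third bin and lies between 26.1 and 39.7 CPM from 250 UMIs on.

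Among the sort genes, Kit and Ly6a encode cKit and Sca-1. Kit was at 382.8 CPM in weakly tagged knockout-like cells, 353.9 CPM in knockout singlets and 382.2 CPM in wild-type singlets at homeostasis, and at 247.2, 197.1 and 230.9 CPM after 5-FU. Ly6a was at 74.5, 81.3 and 76.4 CPM, and at 99.1, 154.5 and 137.2 CPM, lower in the weakly tagged cells than in either singlet group after 5-FU. It fell against knockout singlets by 0.40 on the log2 scale (edgeR adjusted p = 0.00116, a fit in which disagreement between the libraries did not enter). Its adjusted p against wild-type singlets was 0.227 by edgeR. Slamf1, which encodes the stem cell marker CD150, was at 12.5 CPM in weakly tagged cells, 17.8 CPM in knockout singlets and 5.97 CPM in wild-type singlets at homeostasis, and at 27.4, 47.6 and 30.02 CPM after 5-FU (edgeR adjusted p = 0.406 against wild-type singlets). Flt3, a receptor of lymphoid-primed progenitors, was at 379.9, 319.2 and 376.4 CPM in the same order at homeostasis, and at 108.3, 53.6 and 82.2 CPM after 5-FU. With the singlets weighted to cluster makeup, its log2 ratios of weakly tagged cells over wild-type singlets were 0.03 and 0.01.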

How the data were processed

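Per the file headers, the authors made the deposited UMI counts with Cell Ranger, version 4 for homeostasis and 6.0.1 for 5-FU. The submitters' processing notes list mm9, Cell Ranger, Seurat and DESeq2 without roles. The deposited homeostasis matrix was not filtered for cells, so barcodes with 2921 or more gene UMIs were used, and its genes were named from the 5-FU feature list after a check of row order. Hashtags were classified with HTODemux (Seurat 5.3.0). Cells were dropped when their UMIs, gene number or mitochondrial share lay in either outer 2%, or when 9 lineage genes together had 2 or more UMIs. Doublets within a genotype remain. Ratios are of summed counts with 0.5 counts added, for genes with 50 or more UMIs over the groups compared. Sums over 4 pools were tested with edgeR 4.0.16 (TMM, library as a block, Benjamini-Hochberg adjustment, 50 or more UMIs per library). Mice were pooled, and the block removes the difference between the libraries. With a finite prior, p-values rest on how far a group difference disagreed between the 2 libraries, which are also the 2 conditions. That disagreement is moderated by the spread of all genes. P-values do not measure spread between mice. On simulated data (12658 genes, dispersion 0.01) the test recovered 98 of 100 genes changed by a log2 of 1 and 96 of 100 changed by 2, with 7 wrong calls. Each changed gene had the same change in both simulated libraries, and a run at a higher dispersion is not given here. These rates therefore cannot be carried over to the genes called in the real data. Clusters came from scanpy 1.11.5, and a cluster was named from markers when 3 or more, and most of the list, were at least 1.5-fold raised and its leading genes held no more markers of another type.

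Named genes were Sin3b, Ptprc and the sort genes, the 10 highest and 10 lowest of the size rule, the 5 highest and 5 lowest by adjusted p against knockout singlets, and members of fixed lists. The cells, the lists and the marker sets were chosen with earlier results of these data known.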

Additional observations from a re-analysis of the deposited data

Results flagged for a closer look

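A total of 6 results, among the LT-HSC-like share and the genes named by rule, pointed in opposite directions in the 2 libraries against wild-type singlets, with counting intervals for the genes that lay on either side of 0. The differences, given as 5-FU minus homeostasis, were not tested, since each condition is a single library. They were -21.1 points for the LT-HSC-like share of weakly tagged knockout-like cells, and on the log2 scale -1.16 for Pf4, -0.77 for Vwf, 0.88 for Mpo, 1.02 for Ctsg and 0.45 for Cd34, the sialomucin of early progenitors. Cd34 was at 270.5 CPM in weakly tagged cells and 317.7 CPM in wild-type singlets at homeostasis, and at 322.4 and 276.4 CPM after 5-FU. With the singlets weighted to the makeup of the weakly tagged cells, the log2 ratios at homeostasis and after 5-FU were -0.10 and -0.11 for Mpo, -0.29 and -0.11 for Ctsg, -0.04 and -0.29 for Vwf, 0.90 and -0.03 for Pf4 and -0.17 and 0.02 for Cd34. With this weighting Mpo, Ctsg and Vwf had 1 sign in both libraries, and Pf4 and Cd34 were near 0 after 5-FU. Leaving out cells with mature neutrophil transcripts, in place of the weighting, also lowered the Mpo and Ctsg ratios after 5-FU.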

How the results depend on the processing

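The library block pairs the groups within each library. A pairing by replicate number was not possible because the labels give none, and no library could be left out because no residual degree of freedom would remain. Alternatives on depth, k-means, cells with no hashtag UMI, neutrophil transcripts and robust moderation were chosen after seeing the data. Genes called against wild-type singlets (271) were 133 and 124 at tag ratios of at least 2 and 3, 123 with hashtags normalized within cells, 168 with DESeq2, 59 with DESeq2 size factors, 7 with all 8 pools in 1 fit, 165 without neutrophil transcripts, 83 without cells that lack hashtag UMIs, 61 with k-means, 47 without a filter on low counts, 698 without the quality filter, 45 with the homeostasis depth minimum in both libraries and 0 without the library block (100 genes at an unadjusted p under 0.05). Recurring genes (119) were 182 with library size scaling, 40 with DESeq2 size factors, 58 without untagged cells, 42 with k-means, 31 with the depth minimum, 8 without a low-count filter, 7 with all pools and 0 without the block. Against knockout singlets (463) the counts were 119 at the laxer quantile (0.95), 276 and 181 at ratios of 2 and 3, 263 without the quality filter, 228 and 156 with 5000 or more UMIs or the depth minimum, 221 without untagged cells, 14 with DESeq2, 25 without a low-count filter, and 0 with all pools or without the block (unadjusted p under 0.05 in 399 and 23 genes). Against wild-type-like Negative cells (23) they were 9 and 55 at the laxer and stricter quantile, 35 without the quality filter, 104 without untagged cells, 2 with DESeq2 or without a low-count filter, and 0 with 5000 or more UMIs, the depth minimum, all pools or no block (edgeR, unadjusted p under 0.05 in 492, 424, 926 and 43 genes).

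The Sin3b log2 ratio after 5-FU was -2.41 weighted to cluster makeup, -2.38 as the mean of per-cell CPM and -1.98 against wild-type-like Negative cells, and at homeostasis -1.57 against those cells. The LT-HSC-like difference at homeostasis was 6.73 points at the laxer quantile (0.95), 10.2 at resolution 0.5, 29.3 with clusters on all variable genes, 10.1 and 14.6 at ratios of 2 and 3, and 11.3 against wild-type-like Negative cells. After 5-FU it was -9.71 with the depth minimum, -5.01 with hashtags normalized within cells, -20.6 and -5.82 at the laxer and stricter quantile, -20.2 at resolution 0.5 and -10.7 with clusters on all variable genes, and it reversed to 17.8 against wild-type-like Negative cells, of which 84.5% were under that minimum. Weighted to cluster makeup, 27 size-rule genes were higher. Of the named genes, the Elane log2 ratio at homeostasis reversed to -1.29 at a tag ratio of 3, and the Camp log2 ratio after 5-FU to -0.0834 with hashtags normalized within cells, and the Ctsg log2 ratio after 5-FU went from 0.32 to -0.0042 without neutrophil transcripts. The causes were not tested.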
